A study of Mus musculus with 2 samples.

Results

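Sc-RNA-Seq counts of bone marrow cells (BMCs) held 689 surrogate light chain-low pre-B cells among 9933 kept cells (6.94%). Of these, 391 were in the WT library and 298 in the Cko library. The cells were chosen on their own UMIs, the unique molecular identifiers that each stand for 1 captured RNA molecule. A member had at least 2 UMIs of *Cd79a* and *Cd79b* together, which encode the signalling chains of the B cell receptor. It had under 5 UMIs of *Igll1* and *Vpreb1* together, which encode the surrogate light chain. It had no UMI of *Ms4a1* (CD20, a protein of later B cells) or *Siglech* (a receptor of plasmacytoid dendritic cells). Hemoglobin genes made up under 1% of its UMIs, and the neutrophil granule genes *Camp*, *Ngp*, *Ltf*, *Lcn2*, *S100a8* and *S100a9* under 5%. The levels of these genes therefore describe how the cells were chosen and are not a result.

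The study asked how loss of Site-1 protease (S1P, gene *Mbtps1*) in bone-forming cells changed the marrow. S1P is a protease of the Golgi that releases membrane-bound transcription factors such as the SREBPs and ATF6. In the Cko mouse, labelled S1P Cko, a floxed exon of *Mbtps1* was removed by an Osx1-GFP::Cre transgene. It is driven by the promoter of osterix (*Sp7*) and thus is meant for the osteoblast lineage. The paper proposes that the transgene also acts in blood-forming cells, and it found the exon deleted in sorted neutrophils of every Cko mouse examined. It reports no such check of B cells, so whether they keep S1P is not known here. WT mice of the study were S1P f/f, so the floxed alleles were shared by both genotypes while the transgene was in the Cko alone. Both mice were C57BL6/J, 21 days old, and gave marrow of fore- and hindlimb bones after collagenase digestion and lysis of red blood cells. Each genotype was 1 library of 1 mouse, so that genotype, mouse, sex and library cannot be told apart. *Xist*, the RNA of the inactive X chromosome, was listed only in the Cko, and the Y-linked *Eif2s3y* and *Ddx3y* only in the WT. No test was made for this reason, and all intervals are exact 95% intervals that cover counting error only.

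The libraries held 56382459 UMIs (WT) and 34447224 UMIs (Cko), and 6001 genes were listed in both. A gene missing from a list is not taken as 0. Erythroid cells, with hemoglobin at 10% or more of UMIs, made up 40.9% of the WT and 11.9% of the Cko cells, and neutrophils 14.2% and 37.8%, so that the libraries differed in their main populations. Of all barcodes, 28 were found in both libraries, and none of them was a member. Scrublet called 2 members of each library as likely doublets (droplets that took up several cells). *Mbtps1* itself was at 52.4 CPM (WT) and 25.3 CPM (Cko) in the members with 5 or more *Vpreb3* UMIs described further on. CPM are counts per 1000000, here UMIs scaled by the total UMIs of the pooled cells. The log2 ratio of Cko over WT was -1.05 in these cells and -0.51 in all members. It was -0.10 in cells with 5 or more *Igll1* and *Vpreb1* UMIs that met the other limits. Reads at the 3′ end lie outside the floxed exon and do not check the deletion.

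In B cell development, a pre-B cell first shows its new heavy chain at the surface with a stand-in for the light chain, made of λ5 (*Igll1*) and VpreB (*Vpreb1*, *Vpreb2*). Signals of this pre-B cell receptor drive a burst of division and then switch off the surrogate light chain genes, after which the small pre-B cell rearranges its κ or λ light chain genes. A cell with a working light chain becomes an immature B cell, gains MHC class II and later CD20, and leaves the marrow. *Vpreb3* encodes a related protein that stays inside the cell and is made in both pre-B and immature B cells.

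The promoters of the surrogate light chain genes are shown because low counts of their transcripts define these cells, and that of *Vpreb3* because it is the marker by which the cells were divided below. The RefSeq sequences of GRCm38.p6 run from 250 bases before to 50 bases after the start of transcription that RefSeq annotates, 5′ to 3′ on the gene's strand. For *Vpreb2* the GENCODE annotation places the start of the gene at chr16:17980428, inside the window shown. More than the last 50 bases of that window may therefore be transcribed. Capitals mark CAGGTG or its reverse complement CACCTG, an E-box, that is, letters that E proteins such as E2A (*Tcf3*) can bind. *Igll1* lies at chr16:16863936-16864235 (minus strand), *Vpreb1* at chr16:16869206-16869505 (minus), *Vpreb2* at chr16:17980315-17980614 (plus) and *Vpreb3* at chr10:75948050-75948349 (plus).
Igll1: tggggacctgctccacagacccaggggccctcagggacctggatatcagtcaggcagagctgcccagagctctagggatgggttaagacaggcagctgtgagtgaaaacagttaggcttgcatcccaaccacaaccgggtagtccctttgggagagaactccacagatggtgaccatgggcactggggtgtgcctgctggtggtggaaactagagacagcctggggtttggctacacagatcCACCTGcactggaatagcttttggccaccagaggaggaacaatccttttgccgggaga
Vpreb1: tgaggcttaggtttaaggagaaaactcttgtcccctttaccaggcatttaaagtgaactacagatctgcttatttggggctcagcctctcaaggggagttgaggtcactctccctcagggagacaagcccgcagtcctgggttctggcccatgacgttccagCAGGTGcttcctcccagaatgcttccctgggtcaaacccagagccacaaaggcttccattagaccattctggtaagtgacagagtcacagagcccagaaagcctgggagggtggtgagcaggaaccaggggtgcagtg
Vpreb2: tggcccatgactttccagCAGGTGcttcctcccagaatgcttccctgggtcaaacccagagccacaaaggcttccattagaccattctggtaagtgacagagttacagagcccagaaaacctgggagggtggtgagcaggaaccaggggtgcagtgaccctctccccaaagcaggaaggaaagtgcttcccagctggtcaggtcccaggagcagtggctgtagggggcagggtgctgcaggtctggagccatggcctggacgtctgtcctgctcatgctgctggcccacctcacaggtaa
Vpreb3: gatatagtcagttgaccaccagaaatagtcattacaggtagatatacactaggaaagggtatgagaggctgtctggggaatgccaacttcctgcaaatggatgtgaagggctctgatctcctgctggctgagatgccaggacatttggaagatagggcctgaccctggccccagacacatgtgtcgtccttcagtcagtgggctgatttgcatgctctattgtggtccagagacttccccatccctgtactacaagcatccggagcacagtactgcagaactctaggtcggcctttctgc

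The surrogate light chain promoters shown each held 1 match to CAGGTG on either strand and the *Vpreb3* window held none. Among all 32851 RefSeq promoter windows of the same length, 20.2% held the motif. A match is only a run of letters in this window and is not a site. When shifted by 144 bases, the windows of *Vpreb1* and *Vpreb2* overlapped in 156 bases, of which 153 were identical (98.1%) with a longest shared run of 91 bases. The transcripts were not compared, so it is not known how well reads of these genes can be told apart. The values of *Vpreb2* are therefore uncertain and may not be independent of those of *Vpreb1*.

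The label was checked against *Vpreb3*, which the selection did not use. Of the members, 300 of 391 WT cells (76.7%) and 188 of 298 Cko cells (63.1%) had 5 or more *Vpreb3* UMIs. Another 66 WT (16.9%) and 89 Cko members (29.9%) had no *Vpreb3* UMI, and 25 and 21 had between 1 and 4. Members without *Vpreb3* were large libraries with few Cd79 UMIs, with a median of 13642.5 UMIs (WT) and 15447 UMIs (Cko) per cell and a median of 2 *Cd79a* and *Cd79b* UMIs in both. In members with 5 or more *Vpreb3* UMIs the medians were 4098.5 and 4731.5 UMIs per cell and 11 and 13 Cd79 UMIs. *Elane*, *Mpo*, *Prtn3* and *Ctsg*, proteases and peroxidase of the primary granules of neutrophil precursors, made up at least 1% of the UMIs in 40 of 66 (60.6%) WT and 63 of 89 (70.8%) Cko members without *Vpreb3*, against 14 of 300 and 2 of 188 members with 5 or more. The label thus matched the members that carried *Vpreb3* and went against many of those without it.

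**Figure D1:**
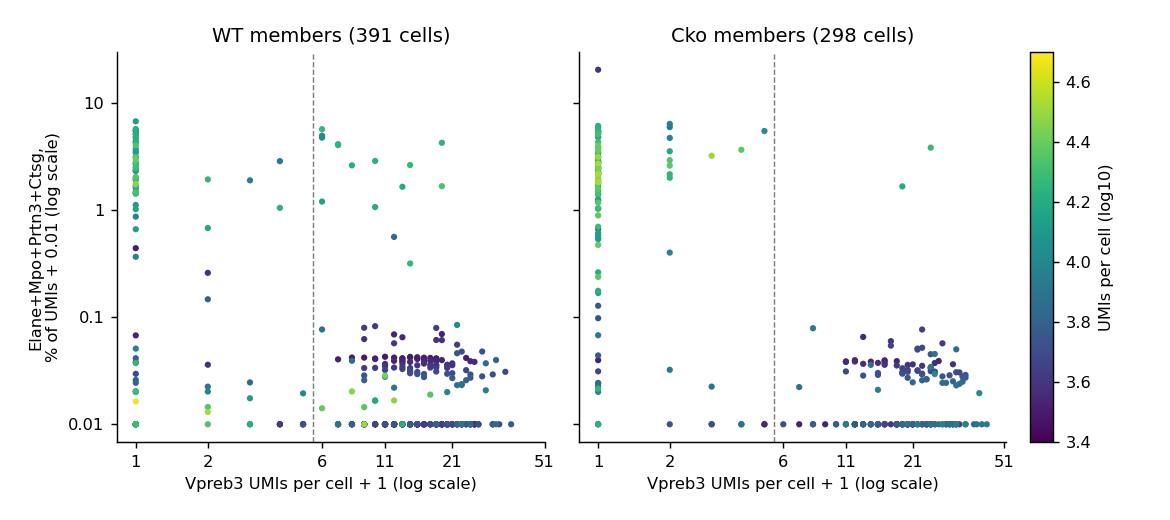
Each point is 1 member, with its *Vpreb3* UMIs (plus 1, log axis) on the x axis and the share of its UMIs from *Elane*, *Mpo*, *Prtn3* and *Ctsg* (percent plus 0.01, log axis) on the y axis, coloured by log10 of its total UMIs, for 391 WT cells (left) and 298 Cko cells (right). The dashed line separates 4 from 5 *Vpreb3* UMIs: cells to its right lie mostly at the bottom, while most cells without *Vpreb3* are at the top and have high totals.

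At the limits of the selection, cells on both sides of the surrogate light chain limit mostly had *Vpreb3*, and cells on both sides of the Cd79 limit mostly had none. With 4 *Igll1* and *Vpreb1* UMIs, just inside, 23 of 28 WT and 17 of 18 Cko members had 5 or more *Vpreb3* UMIs, and with 5, just outside, all 10 WT and all 11 Cko cells did. With exactly 2 Cd79 UMIs, just inside, 4.62% of 65 WT and 0% of 64 Cko members did. With 1 Cd79 UMI and all other limits met, just outside, the shares were 0.467% of 214 and 0.412% of 243 cells. Among members with 5 or more Cd79 UMIs, 95% of 300 WT and 93.5% of 199 Cko cells had 5 or more *Vpreb3* UMIs. Single members belonged to other lineages, such as 1 WT cell with 37.5% of its UMIs from matrix genes and 1 Cko cell with 20.1% from basophil genes.

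Levels are therefore given for the 300 WT and 188 Cko members with 5 or more *Vpreb3* UMIs, here called *Vpreb3* members, and for all members where these differ. This subset was chosen after the values were seen, and its *Vpreb3* level is part of the choice. The primary granule genes still made up 0.435% (WT) and 0.108% (Cko) of the UMIs of the *Vpreb3* members, carried by few cells. Leaving out cells with 1% or more of their UMIs from other lineage genes left 277 and 181 cells, in which these shares were 0.00955% and 0.00943%. The erythroid markers, all 10 of 10 detected, were at 0.407% in WT and 0.112% in Cko *Vpreb3* members, and the highest cell held 1.21% and 0.413%. The 12 neutrophil markers, all detected, were at 0.331% and 0.366%, with 6.68% and 5.60% in the highest cell. Of 10 monocyte and macrophage markers *C1qa* was at 0 in both libraries, and the list was at 0.133% and 0.114%. The T and NK markers were at 0.0197% and 0.00638%, and *Cd3e*, *Cd3g*, *Trbc2*, *Gzma* and *Klrd1* were at 0 in the WT.

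The share of members depended on what was counted as the whole. They were 6.24% (5.65% to 6.86%) of all WT cells and 8.14% (7.27% to 9.07%) of all Cko cells, an odds ratio of Cko over WT of 1.33 (1.14 to 1.56). Of non-erythroid cells they were 10.6% (9.58% to 11.6%) of 3704 in the WT and 9.23% (8.25% to 10.3%) of 3228 in the Cko, with an odds ratio of 0.862 (0.733 to 1.01). Of the cells that met the selection without its limits on *Ms4a1* and the surrogate light chain they were 42.6% of 918 and 42.0% of 710. Erythroid cells, which only the first of these totals includes, differed between the libraries as given above, and their part was not tested.

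*Vpreb3* members alone were 4.78% of all WT and 5.13% of all Cko cells, and 8.10% (7.24% to 9.02%) and 5.82% (5.04% to 6.69%) of non-erythroid cells. The odds ratio over non-erythroid cells was 0.702 (0.578 to 0.851). Members without *Vpreb3* had an odds ratio of 1.56 (1.12 to 2.19) over the same cells, so that over non-erythroid cells the ratios of members with and without *Vpreb3* lay on opposite sides of 1. Over all cells both were above 1, at 1.08 (0.888 to 1.30) and 2.34 (1.68 to 3.28). Over cells that met the selection without its limits on *Ms4a1* and the surrogate light chain, *Vpreb3* members were 32.7% (WT) and 26.5% (Cko). The odds ratio there was 0.742 (0.594 to 0.926), and 1.85 (1.31 to 2.63) for members without *Vpreb3*. Neutrophils made up 24.0% of WT and 42.9% of Cko non-erythroid cells, and their part in the ratios was not tested.

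Of the pre-B receptor genes, the surrogate light chain was low in the *Vpreb3* members by the selection. *Igll1* was at 99.4 CPM in WT and 128 CPM in Cko *Vpreb3* members, against 1659 and 1798 CPM in cells that met the same limits but had 5 or more *Igll1* and *Vpreb1* UMIs, here called SLC-high cells (462 WT and 329 Cko). *Vpreb1* was at 56.6 and 98.2 CPM against 1213 and 1422 CPM. *Vpreb2*, which was not used for the selection, had 0 UMIs in the WT and 7 in the Cko *Vpreb3* members, against 197 and 356 UMIs in SLC-high cells. A count of 0 allows up to 3 UMIs, or 1.81 CPM, in the WT *Vpreb3* members, where SLC-high cells had 50.6 CPM. A fixed limit of UMIs is met more easily by cells with few UMIs in all, and SLC-high cells had a median of 7504.5 (WT) and 9397 (Cko) UMIs.

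Of the other receptor genes only *Ighm* was not used to choose the cells, and the levels of *Vpreb3*, *Cd79a* and *Cd79b* are given as a description. *Vpreb3* was at 2731 CPM (WT) and 3823 CPM (Cko) in *Vpreb3* members against 1985 and 1999 CPM. *Cd79a* was at 1133 and 1491 CPM against 1116 and 1196 CPM, and *Cd79b* at 868 and 1224 CPM against 466 and 512 CPM. *Ighm*, the μ heavy chain, was at 488 and 570 CPM against 407 and 360 CPM. None of these 4 genes was 2-fold higher in both libraries, the limit used for a difference between cell stages, for genes with at least 100 UMIs over the compared cells.

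By that limit 146 of 4887 genes (2.99%) were higher and 135 (2.76%) lower in *Vpreb3* members than in SLC-high cells in both libraries. For all members the counts were 350 of 5202 genes (6.73%) higher and 75 (1.44%) lower. These ratios describe cells that were separated by their own counts and are no test. Of 21 pre-B receptor and signalling genes, 3 were higher (*Fcrla*, *Siglecg* and *Syk*) and 3 lower (*Igll1*, *Vpreb1* and *Vpreb2*), and the median log2 ratio was 0.41 (WT) and 0.63 (Cko) against 0.03 and 0.01 over all genes. *Fcrla*, an intracellular Fc receptor-like protein of B cells, was at 456 and 736 CPM against 194 and 244 CPM (log2 1.23 in WT and 1.60 in Cko). *Siglecg*, an inhibitory sialic acid receptor, was at 284 and 338 CPM against 125 and 118 CPM (1.18 and 1.52). *Syk*, the kinase that binds the CD79 chains, was at 136 and 152 CPM against 50.1 and 53.6 CPM. *Blnk*, the adaptor downstream of *Syk*, was at 323 and 324 CPM against 204 and 199 CPM (0.66 and 0.70), below the limit.

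**Figure D2:**
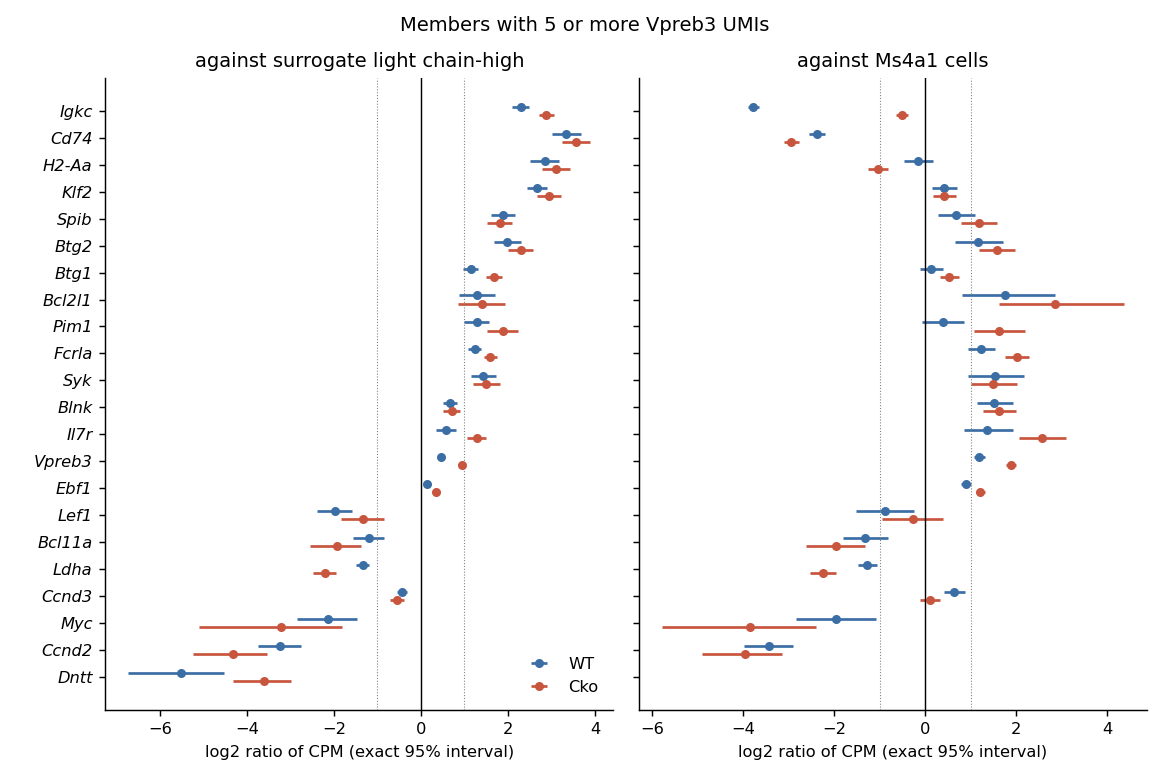
Log2 ratio of CPM for 22 genes in *Vpreb3* members over SLC-high cells (left) and over *Ms4a1* cells (right), with WT in blue, Cko in red, exact 95% counting intervals and dotted lines at the 2-fold limit. On the left panel both libraries lie beyond the right dotted line for *Igkc*, *Cd74*, *H2-Aa* and *Klf2* and beyond the left one for *Dntt*, *Lef1*, *Ccnd2* and *Myc*; *Dntt* is not drawn on the right because it had too few UMIs.

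*Igkc*, the κ light chain constant region at chr6:70726435-70726966 (GRCm38), had 651 UMIs (392 CPM) in WT and 791 UMIs (801 CPM) in Cko *Vpreb3* members. SLC-high cells had 79.9 and 109 CPM, a log2 ratio of 2.29 in the WT and 2.88 in the Cko. Cells differ in depth, so each was thinned to 3000 UMIs before cells were counted. At this depth 67.3% (61.7% to 72.6%) of WT and 84.0% (78.0% to 89.0%) of Cko *Vpreb3* members had an *Igkc* UMI, against 19.9% (16.4% to 23.9%) and 24.3% (19.8% to 29.3%) of SLC-high cells. Without thinning, the shares of *Vpreb3* members were 78.7% and 92.0%. Free RNA gives a background: after the same thinning 3.51% and 1.61% of erythroid cells had an *Igkc* UMI, and 4.96% and 3.10% of neutrophils. Without thinning, at a median of 6071 and 8050 UMIs, the shares of erythroid cells were 5.73% and 2.53%. The level per cell was low, as 0.667% of WT and 2.13% of Cko *Vpreb3* members had 10 or more *Igkc* UMIs, against 26.2% and 25.3% of cells with an *Ms4a1* UMI.

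Among cells grouped by their surrogate light chain UMIs, the share with *Igkc* was lower at each higher level in the WT. It went from 70.1% of 177 WT *Vpreb3* members with no *Igll1* or *Vpreb1* UMI through 64.6% with 1 or 2 and 61.0% with 3 or 4 to 44.9% of SLC-high cells with 5 to 9, 26.2% with 10 to 19, 9.87% with 20 to 49 and 3.23% of 31 cells with 50 or more. In the Cko the shares were 93.8% of 80 cells, 82.2%, 65.7%, 66.7%, 42.4%, 17.1% and 2.74% of 73 cells in the same order. The limit of 5 UMIs therefore fell within a slope and not at a step, and neighbouring groups on each side of it had overlapping intervals (44.5% to 75.8% and 33.6% to 56.6% in the WT, 47.8% to 80.9% and 49.8% to 80.9% in the Cko). The *Igll1* and *Vpreb1* UMIs were not thinned. From the lowest to the highest group the median total UMIs per cell went from 3886 to 11837 (WT) and from 4297.5 to 15314 (Cko). The part of depth in this slope was not tested.

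**Figure D3:**
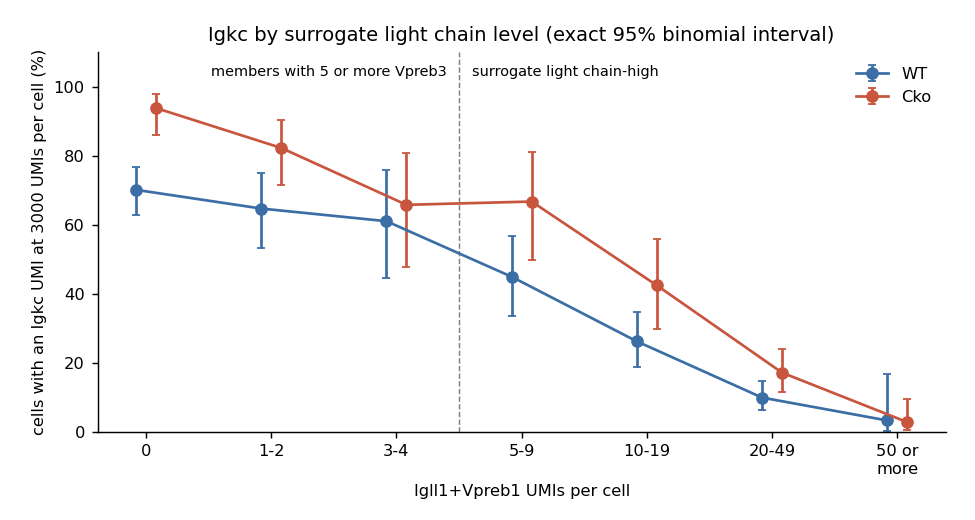
Share of cells with an *Igkc* UMI after thinning to 3000 UMIs (percent, y axis) by the cell's *Igll1* and *Vpreb1* UMIs without thinning (x axis), with exact 95% binomial intervals, for WT (blue) and Cko (red). *Vpreb3* members are left of the dashed line at the limit of 5 UMIs and SLC-high cells right of it; the share goes from 70.1% to 3.23% in the WT and from 93.8% to 2.74% in the Cko.

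The light chain of members without *Vpreb3* came from few cells. Of 5271 *Igkc* UMIs in all WT members, 4605 were in the 66 cells without *Vpreb3*, and 3 of these cells had 100 or more, with a maximum of 2356. At 3000 UMIs, 7.58% of these WT cells and 1.12% of the 89 Cko cells without *Vpreb3* had an *Igkc* UMI, near the background. *Igj*, the J chain that antibody-secreting cells make, had 1436 UMIs in 6 WT members and was listed only in the WT. *Iglc2*, a λ constant region, was at 18.1 and 12.2 CPM in *Vpreb3* members and at 12.6 and 3.65 CPM in SLC-high cells.

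The MHC class II genes were higher in *Vpreb3* members than in SLC-high cells in 5 of 6 genes with enough UMIs, and none was lower (median log2 2.12 in WT and 1.91 in Cko). *Cd74*, the invariant chain that guides class II molecules, was at 255 and 358 CPM against 25.2 and 30.3 CPM (log2 3.34 and 3.57). *H2-Aa* was at 186 and 276 CPM against 26 and 32.2 CPM (2.84 and 3.10), and *H2-Eb1* at 80.1 and 71.9 CPM against 9.51 and 12.6 CPM (3.07 and 2.51). These transcripts sat in a minority of cells, since 92 of 300 WT *Vpreb3* members (30.7%) had a *Cd74* UMI and the median cell had none. A single cell held 19.1% of the *Cd74* UMIs in the WT and 26.0% in the Cko. Primary granule and monocyte genes were also higher in *Vpreb3* members than in SLC-high cells (*Elane* 1886 and 401 CPM against 159 and 24.7 CPM), and their part in the class II values was not tested. Without the cells that had 1% or more of other lineage UMIs, *Cd74* was at 278 and 263 CPM.

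Of 20 B lineage transcription factors with enough UMIs, 3 were higher and 3 lower in *Vpreb3* members than in SLC-high cells. *Klf2*, a factor of quiescence and migration in lymphocytes, was at 343 and 348 CPM against 54.2 and 45.1 CPM (log2 2.66 and 2.95). *Spib*, an Ets factor of B cells, was at 177 and 210 CPM against 48.1 and 59.7 CPM (1.88 and 1.81), and *Id2*, an inhibitor of E proteins, at 37.3 and 31.4 CPM against 7.19 and 8.97 CPM (2.38 and 1.81). *Lef1*, a Wnt pathway factor of early B cells, was at 34.3 and 40.5 CPM against 135 and 102 CPM. *Bcl11a* was at 48.8 and 28.4 CPM against 112 and 108 CPM. *Erg*, an Ets factor of progenitors, was at 0.602 and 3.04 CPM against 19.3 and 22.2 CPM, that is, at or under 3 UMIs in each group of *Vpreb3* members. The main factors of the lineage differed little, with *Ebf1* at 2411 and 2830 CPM against 2204 and 2238 CPM and *Tcf3* at 414 and 495 CPM against 291 and 293 CPM. *Pax5* is not among the listed genes, and *Foxo1*, *Rag2* and *Ikzf3* were listed only in the Cko.

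*Dntt*, the polymerase that adds bases at heavy chain joins in pro-B cells, was at 4.82 and 21.3 CPM in *Vpreb3* members against 219 and 261 CPM in SLC-high cells (log2 -5.51 and -3.62). Of 5 recombination genes it alone passed the limit. *Rag1*, a subunit of the recombinase, was at 21.7 and 29.4 CPM against 16.7 and 18.5 CPM. *Xrcc6* (Ku70, which binds broken DNA ends) was at 111 and 151 CPM against 60.1 and 71.2 CPM.

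Genes of cell number moved both ways. Of 10 genes, 4 were higher in *Vpreb3* members than in SLC-high cells (*Bcl2l1*, *Btg1*, *Btg2* and *Pim1*) and 2 lower (*Ccnd2* and *Myc*). *Bcl2l1*, which encodes the survival protein Bcl-xL, was at 60.8 and 52.7 CPM against 24.9 and 19.9 CPM (log2 1.29 and 1.40). The antiproliferative gene *Btg2* was at 142 and 251 CPM against 36 and 51.3 CPM (1.98 and 2.29), and *Btg1* at 322 and 508 CPM against 146 and 159 CPM (1.14 and 1.68). *Ccnd2*, a D-type cyclin, was at 22.9 and 13.2 CPM against 215 and 264 CPM (-3.23 and -4.32). *Myc* was at 12.6 and 4.05 CPM against 55.2 and 37.6 CPM (-2.13 and -3.21). *Ccnd3*, the D-type cyclin that pre-B cells depend on, was at 560 and 392 CPM against 759 and 573 CPM and did not pass the limit.

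Other genes with the lowest ratios were *Bok*, *Ttll11*, *Bsn*, *Dlg2*, *Rnase12* and *Txnrd3*. *Bok*, a relative of Bax, had no UMI in *Vpreb3* members of either library, which allows up to 1.81 CPM (WT) and 3.04 CPM (Cko), against 98 UMIs (25.2 CPM) and 113 UMIs (31.7 CPM) in SLC-high cells. The smaller of the log2 changes in the libraries was -3.76 for *Ttll11*, -3.42 for *Bsn*, -3.32 for *Dlg2*, -3.27 for *Rnase12* and -3.07 for *Txnrd3*. Of 10 glycolysis genes *Ldha* was lower, at 251 and 134 CPM against 635 and 617 CPM. None of 18 endoplasmic reticulum genes and none of 4 SREBP targets passed the limit in either direction. *Il7r*, the receptor for the growth factor IL-7, was at 158 and 273 CPM against 106 and 113 CPM, past the limit in the Cko only. Of 17 surface genes, *Cd38* (41 and 31.4 CPM against 11.8 and 8.97 CPM) and *Ly6d* (193 and 370 CPM against 60.4 and 73.5 CPM) were higher.

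Against the cells with an *Ms4a1* UMI (65 WT and 83 Cko cells, at any surrogate light chain level), 105 of 3843 genes (2.73%) were higher and 62 (1.61%) lower in *Vpreb3* members. For all members 99 of 4843 genes (2.04%) were higher and 43 (0.888%) lower. The *Ms4a1* cells were mixed and not purely a later stage. Only 42 WT and 59 Cko *Ms4a1* cells had under 5 surrogate light chain UMIs, and 7 and 16 had no *Vpreb3* UMI. *Vpreb3*, by which the subset was chosen, was at 2731 and 3823 CPM against 1201 and 1032 CPM, and *Blnk* at 323 and 324 CPM against 113 and 105 CPM (log2 1.52 and 1.62). *Il7r* was at 158 and 273 CPM against 61.8 and 46.5 CPM (1.36 and 2.56). Of 19 transcription factors, *Bach2*, *Irf4*, *Sox4* and *Zeb2* were higher, with *Sox4* at 243 and 303 CPM against 81.8 and 58.7 CPM and *Bach2* at 246 and 269 CPM against 98.1 and 64.9 CPM. *Irf4*, which pre-B cells use to open the κ locus, was at 75.3 and 74.9 CPM against 21.8 and 29.4 CPM. Other genes with the highest ratios were *Gas7*, *Lima1*, *Prg3*, *Hist3h2ba*, *Serinc5*, *H1fx*, *Cecr2*, *Stambpl1*, *Arl5c* and *Rnf157*. *Lima1*, an actin-binding protein, was at 67.5 and 115 CPM against 9.09 and 3.67 CPM.

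Of 3 immunoglobulin constant region genes, *Iglc2* was lower than in *Ms4a1* cells. It was at 18.1 and 12.2 CPM against 467 and 909 CPM (log2 -4.69 and -6.23). Of 7 MHC class II genes 3 were lower and none higher, with *Cd74* at 255 and 358 CPM against 1334 and 2765 CPM (-2.39 and -2.95) and *H2-DMb2*, a chain of the peptide loader, at 4.22 and 6.08 CPM against 67.2 and 115 CPM. *Ltb*, lymphotoxin β, was at 6.02 and 15.2 CPM against 111 and 225 CPM, and *Faim3*, the IgM Fc receptor, at 9.03 and 12.2 CPM against 153 and 144 CPM. *Igkc* did not pass the limit in both libraries, with log2 ratios of -3.78 (WT) and -0.52 (Cko), and 81.2% of the WT *Igkc* UMIs in *Ms4a1* cells were in 1 cell. The *Vpreb3* members thus lay between the SLC-high and the *Ms4a1* cells in *Cd74* in each library.

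Genes of G2 and mitosis gave more UMIs in the median *Vpreb3* member than in SLC-high cells, *Ms4a1* cells or members without *Vpreb3* of either library. After thinning, the 29 G2 and mitosis genes gave a median of 36.5 UMIs per cell in WT and 37 in Cko *Vpreb3* members. SLC-high cells had medians of 21 and 19, *Ms4a1* cells 24 and 6, and members without *Vpreb3* 10.5 and 8. S phase genes had medians of 12.5 and 8 UMIs in *Vpreb3* members, 14 and 11 in SLC-high cells, 12 and 6 in *Ms4a1* cells and 7 and 7 in members without *Vpreb3*. In WT *Vpreb3* members with under 1% of other lineage UMIs the S phase median was 14, equal to that of SLC-high cells. No single gene of 28 G2 and mitosis genes or of 26 S phase genes passed the 2-fold limit in both libraries, and the median log2 ratio to SLC-high cells was 0.50 and 0.77 for the former and -0.08 and -0.28 for the latter. *Mki67*, a marker of dividing cells, was at 473 and 496 CPM against 347 and 298 CPM.

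**Figure D4:**
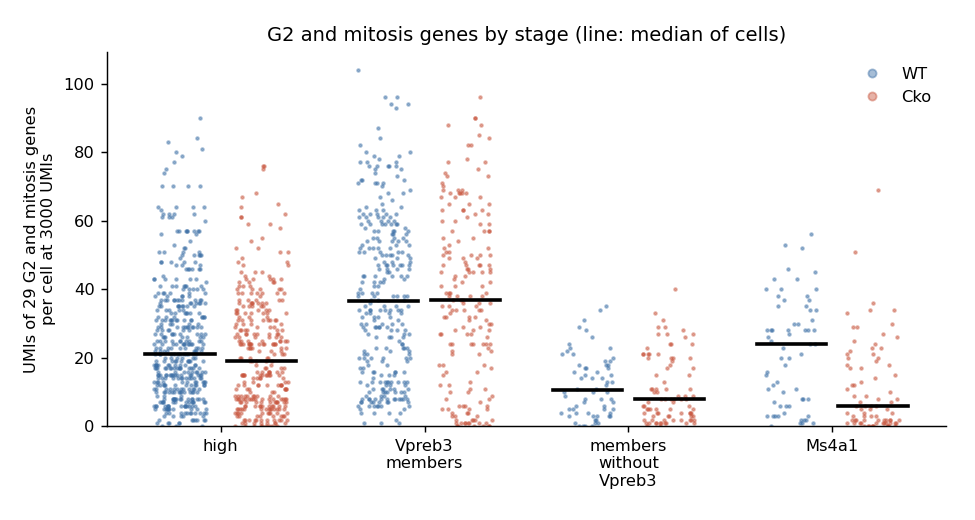
UMIs of the 29 G2 and mitosis genes per cell after thinning to 3000 UMIs (y axis), for SLC-high cells, *Vpreb3* members, members without *Vpreb3* and *Ms4a1* cells of the WT (blue) and the Cko (red). Each point is 1 cell and each line is the median of cells, which is 36.5 and 37 in *Vpreb3* members against 21 and 19 in SLC-high cells.

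The share of cells with 3 or more UMIs of either list was near its ceiling and separates little. It was 99.0% in WT and 95.7% in Cko *Vpreb3* members, but also 89.3% and 67.1% in erythroid cells and 83.7% and 62.4% in neutrophils, so it is a range and not a phase call. Within *Vpreb3* members, 178 of 300 WT and 115 of 188 Cko cells had 30 or more G2 and mitosis UMIs. Of these, 75.3% (WT) and 89.6% (Cko) had an *Igkc* UMI, against 53.7% of 41 and 78.4% of 37 cells with under 10. *Il7r* was found in 53.9% and 56.5% of the former and in 22.0% and 43.2% of the latter. The cells with most G2 and mitosis UMIs therefore did not lack the light chain transcript. In SLC-high cells the *Igkc* share likewise was 31.2% (WT) and 34.7% (Cko) in cells with 30 or more and 11.4% and 11.9% in cells with under 10. G2 and mitosis UMIs and these genes share the 3000 UMIs of a cell.

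Between the genotypes, *Vpreb3* members had 118 of 2969 genes (3.97%) higher and 324 (10.9%) lower in the Cko. A gene was counted when its ratio was at least 1.5-fold, its counting interval lay off 1 and both libraries together had at least 100 UMIs. For all members the counts were 235 of 4551 genes (5.16%) higher and 364 (8%) lower. The median log2 ratio of all genes was -0.09 in *Vpreb3* members and -0.12 in SLC-high cells. Spread between mice was not measured, so these counts compare libraries.

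*Igkc* was at 392 CPM in WT and 801 CPM in Cko *Vpreb3* members, a log2 ratio of 1.03 (0.88 to 1.18). The shares of cells with *Igkc*, given above, did not overlap in their counting intervals. In SLC-high cells the log2 ratio was 0.45 (0.23 to 0.66). Over all members it was -2.61 (-2.71 to -2.50), in the opposite direction, because the few WT cells rich in *Igkc* described above carried most of the UMIs. *Ighm* likewise had a log2 ratio of 0.22 (0.07 to 0.38) in *Vpreb3* members and -2.30 in all members. Without cells with 1% or more of other lineage UMIs, *Igkc* had 0.92 (0.77 to 1.08).

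Of 17 receptor and signalling genes 2 were higher in the Cko and none lower, against 3.97% and 10.9% of all genes. The median log2 ratio was 0.36 against -0.09. The list holds genes by which the cells were chosen, such as *Vpreb1* and *Vpreb3*, so these values are a description. Over all members 0 of 19 genes were higher and 2 lower (*Blnk* and *Ighm*), with a median of -0.19 against -0.10 over all genes. *Fcrla* was at 456 CPM in the WT and 736 CPM in the Cko (log2 0.69, 0.54 to 0.84). It did not pass the limit once cells with 1% or more of other lineage UMIs were left out. *Vpreb1*, a gene of the selection, was at 56.6 and 98.2 CPM (0.80, 0.37 to 1.22). Of the genes by which the cells were chosen, *Cd79a* had a log2 ratio of 0.40, *Cd79b* 0.50 and *Vpreb3* 0.49. *Blnk* had 0.01.

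Of 13 surface genes, 4 were higher and 1 lower in the Cko, against 3.97% and 10.9% of all genes. *Il7r* was at 158 and 273 CPM (log2 0.79, 0.54 to 1.04), and its ratio in SLC-high cells was 0.08. *Ly6d* was at 193 and 370 CPM (0.94, 0.71 to 1.16). *Cxcr4*, the receptor for the niche chemokine CXCL12, was at 33.7 and 72.9 CPM (1.11, 0.59 to 1.64), and in SLC-high cells it had 0.83. *Cd37*, a tetraspanin of B cells, was at 320 and 522 CPM (0.70). *Spn* (CD43), which is lost as B cells mature, had 84 UMIs in the WT and 21 in the Cko (-1.25, -2.01 to -0.55). None of 6 MHC class II genes passed the limit. Of 17 transcription factors only *Bcl11a* did (81 and 28 UMIs, -0.78).

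**Figure D5:**
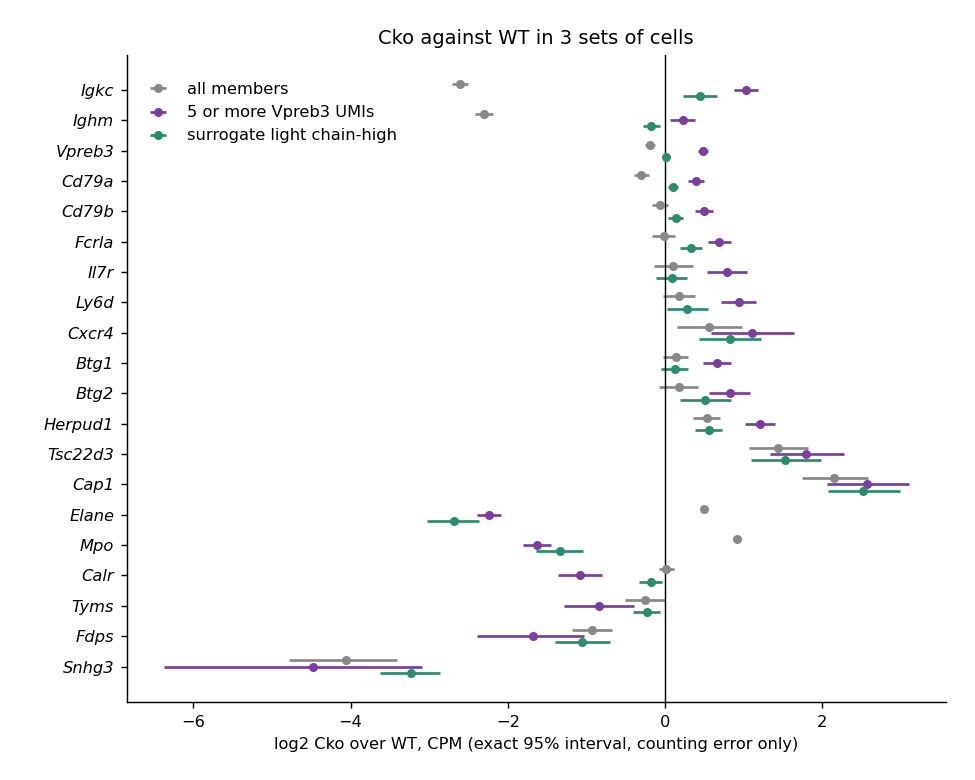
Log2 ratio of Cko over WT CPM for 20 genes with exact 95% counting intervals, in all members (grey), *Vpreb3* members (purple) and SLC-high cells (green). *Igkc* and *Ighm* lie left of 0 in all members and right of 0 in *Vpreb3* members, while *Cap1* lies near 2.5 and *Snhg3* below -3 in *Vpreb3* members and SLC-high cells.

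Of 7 cell number genes, *Btg1* (322 and 508 CPM, log2 0.66) and *Btg2* (142 and 251 CPM, 0.82) were higher in Cko *Vpreb3* members. Without cells with 1% or more of other lineage UMIs, *Btg1* did not pass the limit while *Btg2* (0.80) still did. The S phase list was lower in 5 of 23 genes (*Cdca7*, *Hells*, *Mcm2*, *Mcm6* and *Tyms*) and higher in none, against 10.9% and 3.97% of all genes. Its median log2 ratio was -0.35 against -0.09 over all genes. In SLC-high cells 0 of 26 S phase genes passed the limit, with a median of -0.26 against -0.12 over all genes. *Tyms*, thymidylate synthase, was at 105 CPM in the WT and 58.7 CPM in the Cko (-0.84). None of 28 G2 and mitosis genes passed the limit, and *Mki67* had 0.07 and *Top2a* 0.09. The median *Vpreb3* member had 12.5 S phase UMIs in the WT and 8 in the Cko after thinning.

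Of the factors that S1P releases, the SREBPs had few targets that could be compared here. Of 25 SREBP targets 7 were listed in both libraries, and only *Fdps*, an enzyme of the cholesterol path, had enough UMIs. It had 124 UMIs (74.7 CPM) in the WT and 23 (23.3 CPM) in the Cko (log2 -1.68, -2.39 to -1.03). Its ratio in SLC-high cells was -1.05. Of 14 endoplasmic reticulum genes, *Herpud1*, which takes part in the removal of misfolded proteins, was higher at 243 and 560 CPM (1.21, 1.02 to 1.40) and 0.56 in SLC-high cells. *Calr*, *Canx*, *Pdia3*, *Pdia6* and *Sdf2l1* were lower. Over all genes 3.97% were higher and 10.9% lower. *Calr*, a chaperone, was at 291 and 138 CPM (-1.08), but without cells with 1% or more of other lineage UMIs its ratio was -0.55, that of *Pdia3* -0.58, of *Sdf2l1* -0.32 and of *Pdia6* 0.08, none of them past the limit, while *Canx* still passed it at -0.65. Glycolysis genes were lower in 3 of 8, with *Aldoa* at -1.20, *Ldha* at -0.91 and *Pkm* at -0.74, and without those cells *Pkm* had -0.22 while *Aldoa* (-0.85) and *Ldha* (-0.74) still passed the limit. The primary granule genes moved with these values, since *Elane* was at 1886 CPM in WT and 401 CPM in Cko *Vpreb3* members.

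The 5 highest ratios in *Vpreb3* members were those of *Cap1*, *Tsc22d3*, *Gm6133*, *Prg3* and *Sapcd1*. *Cap1*, an actin regulator, was at 25.3 CPM in the WT and 150 CPM in the Cko (log2 2.57, 2.06 to 3.10), and had 2.52 in SLC-high cells. *Tsc22d3*, a gene that glucocorticoids induce, was at 34.9 and 122 CPM (1.80) and had 1.53 in SLC-high cells. *Gm6133* had 1.73 in *Vpreb3* members and 1.11 in SLC-high cells, and *Sapcd1* 1.61 and 1.03. The higher values of *Cap1*, *Tsc22d3*, *Gm6133* and *Sapcd1* were thus shared with SLC-high cells and were not tested for a difference between them.

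The 5 lowest ratios were those of *Mt2*, *Klf1*, *Mcpt8*, *Prss34* and *Snhg3*. *Mt2*, a metallothionein, had 173 UMIs in 17 WT cells and none in the Cko. *Klf1*, the erythroid factor, had 108 UMIs in 25 WT cells and 1 UMI in the Cko. These 25 cells had a median of 6833 UMIs and 9 Cd79 UMIs, against 4029 and 11 in the other WT *Vpreb3* members, and 1 of them was called as a doublet. The basophil proteases *Mcpt8* (169 and 3 UMIs) and *Prss34* (151 and 4 UMIs) came almost wholly from 1 WT cell. *Snhg3*, a host of small nucleolar RNAs, was at 90.3 and 4.05 CPM (log2 -4.48, -6.37 to -3.09), and had -3.23 in SLC-high cells. *Hba-a1* was at 805 CPM in the WT and 219 CPM in the Cko *Vpreb3* members (-1.88) and had -2.09 in SLC-high cells, and all 6 erythroid markers with enough UMIs were lower. *Ngp*, of neutrophil granules, was at 143 and 263 CPM (0.88) and had 0.93 in SLC-high cells. The erythroid and neutrophil shares of the libraries moved in the same directions, and their part in these values was not tested.

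Over all members the highest ratios included *Fabp4* (157 UMIs in the Cko members, 94.3% of them in 1 cell) and *Cxcl12* (97% in 1 cell), and the lowest *Col1a1* (2675 UMIs in the WT, 75.4% in 1 cell) and *Ppbp* (99% in 1 cell). *BC100530*, of the stefin A family, was at 8.49 CPM in WT and 45.4 CPM in Cko members (log2 2.42, 1.78 to 3.12) and had 2.30 in SLC-high cells. *Fabp4*, *Cxcl12*, *Col1a1* and *Ppbp* were thus each carried mainly by 1 cell, and *BC100530* was not among the genes tested in *Vpreb3* members.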

How the data were processed

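Sc-RNA-Seq was performed by the authors on BMCs of 1 WT and 1 Cko mouse with the 10x Chromium Single Cell 3′ kit. The values the authors deposited are raw UMI counts, whole numbers for each gene in each barcode. The processing notes name Cell Ranger and GRCm38, and the version is not given in the sources used here. Genotypes were taken from the sample labels. Barcodes with at least 200 genes were kept (6271 WT and 3662 Cko), and totals and sums in the matrices were dropped. The maximum over cells was 4 UMIs or more for every listed gene, so that rarer genes are missing from the lists. Scrublet (scanpy 1.11.5, expected doublet rate 5%) marked doublets, which stayed in.

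UMIs were summed over cells and scaled to CPM of these cells. Exact Poisson, binomial and conditional binomial 95% intervals were computed with scipy 1.17.1, numpy 2.4.6 and pandas 2.3.3 in Python 3.11.15, and figures were drawn with matplotlib 3.10.9. PCR duplicates are removed by UMIs, and the intervals cover counting error only. Genotype ratios were counted at 1.5-fold with the interval on 1 side, and stage ratios at 2-fold in both libraries, for genes with at least 100 UMIs over the compared cells. For shares of cells, each cell was thinned to 3000 UMIs. No test was made. The code was checked on simulated counts. Gene positions came from the GENCODE annotation of GRCm38, and promoters from RefSeq, in which 10 of 13 genes looked for were found.

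The members and gene lists were chosen with earlier results of these data known. Named genes were those of the lists, the 5 highest and 5 lowest genotype ratios and the 10 highest and 10 lowest stage ratios. The subset with 5 or more *Vpreb3* UMIs and the subset of these with under 1% of other lineage UMIs were added after the values were seen. So were the lists of primary granule, basophil, megakaryocyte and matrix genes, and *Igj*.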

Additional observations from a re-analysis of the deposited data

Results flagged for a closer look

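Genes with at least 100 UMIs in the members of the Cko that were not listed in the WT were *Xist* at 1139 CPM, *AA465934* at 84.1 CPM, *Mthfsl* at 42.4 CPM and *Ankrd44* at 39.8 CPM. A gene that is not listed in the WT has no value there, and no fold was computed.

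For 4 genes the ratio of Cko over WT had opposite signs in the *Vpreb3* members and in the members without *Vpreb3*, and the difference between these ratios was not tested. *Igkc* had a log2 ratio of 1.03 in *Vpreb3* members (651 WT UMIs and 791 Cko UMIs) and -10.84 in members without *Vpreb3* (4605 and 4 UMIs). *Ly6c2*, a monocyte gene, had -1.10 (826 and 229 UMIs) and 0.59 (1927 and 4618 UMIs). Among the basophil genes, *Mcpt8* had -5.07 (169 and 3 UMIs) and 4.86 (17 and 790 UMIs), and *Prss34* had -4.49 (151 and 4 UMIs) and 9.22 (1 and 953 UMIs).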

How the results depend on the processing

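No paired analysis was possible because each genotype had 1 library, and for the same reason no replicate could be left out. Fewer UMIs in the Cko limit low genes, and spread between mice was not measured. Of the values that answer a comparison, 101 kept their call or size under the alternatives and 25 shares moved. Another 22 were counts of genes that shrank by over 1.5 times or odds ratios whose interval then held 1, 8 were counts that grew by over 1.5 times, and 2 odds ratios reversed. Of the other values, nearly all for single genes, 963 were the same, 92 newly passed a limit or grew, 37 no longer passed or shrank and 20 reversed. The causes were not tested except where the set of cells or genes itself was changed.

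A limit of under 3 surrogate light chain UMIs gave shares of 5.5% (WT) and 7.15% (Cko) of all cells, and under 10 gave 7.48% and 9.20%. Over non-erythroid cells the shares were 10.6% and 9.23% and the log2 odds ratio -0.21 in place of 0.41, and over Cd79-positive cells 42.6% and 42.0% with -0.037. At least 4 Cd79 UMIs gave 4.96% and 5.71% with a log2 odds ratio of 0.21. The genotype counts were then 123 higher and 230 lower, 172 genes were higher than in SLC-high cells, and 65.0% and 78.5% of cells had *Igkc*. *Prss34* (-4.18), *Mcpt8* (-4.61) and *Id2* (-0.15) turned.

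With *Vpreb3* members alone, added after the data were seen, the shares were 4.78% and 5.13% (log2 odds ratio 0.11). The genotype ratios gave 118 genes higher, and 146 were higher and 135 lower than in SLC-high cells. *Igkc* was in 67.3% and 84.0% of cells, and 99.0% of WT cells passed the division limit. Log2 ratios that turned were those of *Prss34* (-4.49), *Mcpt8* (-5.07), *Igkc* (1.03), *Ighm* (0.22), *Blnk* (0.0056), *Fcrla* (0.69), *Calr* (-1.08), *Pdia6* (-0.59), *Elane* (-2.23), *Mpo* (-1.62), *Ctsg* (-2.39), *Prtn3* (-1.81) and *Klf2* (0.024). Without cells with 1% or more of other lineage UMIs, also added later, the shares were 4.42% and 4.94% (0.17), 97 genes were higher in the Cko, 112 were higher and 174 lower than in SLC-high cells, and 129 were lower than in *Ms4a1* cells. Division genes passed in 99.6% and 97.2% of cells and *Igkc* in 69.7% and 85.1%, and *Igkc* (0.92), *Ighm* (0.13) and *Klf2* (0.0060) turned.

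A mean of each cell's CPM gave 70 genes lower than in *Ms4a1* cells. At a minimum of 300 UMIs the genotype counts were 108 higher and 115 lower of 2239 genes. Those against SLC-high cells were 174 and 49, and those against *Ms4a1* cells 46 and 23. At 20 UMIs, 594 were lower in the Cko, 586 higher than in SLC-high cells, and 202 higher and 83 lower than in *Ms4a1* cells. Before thinning, 380 of 391 WT and 273 of 298 Cko members had 3 or more G2 and mitosis UMIs, so leaving these out kept few cells. Only 224 genes were then tested between genotypes, with 45 higher and 16 lower in the Cko. The counts were 21 and 15 against SLC-high cells and 24 and 11 against *Ms4a1* cells, and *Vpreb3* (1.48) turned. With so few cells, these counts cannot be set beside those of all members. Without thinning, 64.5% of WT members had *Igkc* and 5.03% of Cko members had 10 or more *Igkc* UMIs.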
